A study of Mus musculus with 4 samples.

Results

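The odorant receptors described here are the class II receptors of chromosome 9, taken as all genes whose symbols run from Olfr832 to Olfr985 in whole numbers, without pseudogene symbols. They are 28 genes of 1 block and 78 of another, together 9.60% of the 1104 whole-number Olfr genes among 49671 gene symbols in the tables. The study took olfactory epithelium from CD-1 mice, which are outbred, and counted transcripts cell by cell as unique molecular identifiers (UMIs). There is 1 library for each of 4 postnatal ages, written P0, P3, P7 and P21 after the day. No genotype or treatment is named, and the labels call the loaded samples sorted without giving the gate, so shares of cells can be set by the sort. How many mice stand behind a library is not stated in the labels. The 4 libraries held 2691, 3220, 1785 and 1413 cells after filtering, with medians of 3227, 4982, 4682 and 4409 UMIs per cell. Of the cell barcodes, 68 were found in both the P0 and the P3 library, against 1 to 9 for the other pairs of libraries. Among member users, 1, 3, 0 and 2 cells carried such a barcode, and 2 of these had the same receptor in the other library.

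Odorant receptors are G protein-coupled receptors of olfactory sensory neurons (OSNs), and a mature OSN expresses a single allele of a single receptor gene from this very large family. Class I receptors, which resemble those of fish, sit in 1 cluster on chromosome 7, and class II receptors are spread in clusters over many chromosomes. The receptor couples through the G protein subunit Gnal to adenylyl cyclase Adcy3 and the cyclic nucleotide channel Cnga2, and axons of neurons with the same receptor meet in shared glomeruli of the olfactory bulb. Choice of a receptor is tied to the neuron's place in the epithelium: the dorsal zone is marked by the quinone reductase gene Nqo1 and by Acsm4, and the ventral zone by the adhesion gene Ncam2 and by Nfix, a nuclear factor I transcription factor.

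Mature neurons were gated as cells with 3 or more UMIs of Omp (olfactory marker protein), and immature ones as cells with 3 or more UMIs of Gap43 (growth-associated protein of extending axons). A cell may pass both gates. In order of age the Omp gate held 615, 620, 476 and 958 cells and the Gap43 gate 946, 851, 540 and 256, of which 291, 330, 143 and 141 passed both. Marker genes were summed in the gates as CPM (UMIs scaled to the same total in each group of cells). The mature OSN markers include Omp and the immature ones include Gap43, so part of both sums was fixed by the gating. In cells of the Omp gate alone, 8 mature OSN markers summed to between 19897 and 27859 CPM over the 4 libraries. In cells of the Gap43 gate alone they summed to 1350.1 to 2039 CPM. For 8 immature OSN markers the order was the opposite, with 1460.3 to 2601 against 14595 to 16024 CPM. The 6 stromal markers summed to 30.9 to 370.5 CPM and 6 leukocyte markers to 4.40 to 48.9 CPM in cells of the Omp gate alone. A cell was said to use a receptor when it held 3 or more UMIs of it.

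GENCODE, on the build of the tables (mm10), placed all of the members on chromosome 9, in 2 blocks 17.4 Mb apart. The first block, from 18937122 to 20303599, held 28 members from Olfr832 to Olfr873, and the second, from 37745106 to 40130184, held 78 from Olfr874 to Olfr985. On the plus strand lay 70 and on the minus strand 36, and 104 were annotated as protein coding, with Olfr908 and Olfr936 as polymorphic pseudogenes. By coding sequence the nearest relative of 81 members was another member, and 17 members had a relative at 95% identity or more, among them Olfr874 and Olfr875 with each other (95.6%), Olfr859 with Olfr58 (96.9%), and Olfr924 with Olfr926 (96.1%). Reads of such near copies can be split between them by the counting, so their values are less certain. Chromosome 9 also carries 26 receptors with other numbers, which the number rule leaves out and which stand here among the 871 other class II receptors.

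RefSeq windows around the annotated start (GRCm38.p6) matched 90 members with 91 windows, but 69 of the windows held a GENCODE start codon and so lie at the coding exon, which in receptor genes often follows an intron. Only 13 windows stood within 100 bases of the outermost GENCODE transcript start and held no start codon. They are shown for the 4 of these members with 3 or more users in the Omp gate, because those 4 differ in the Nqo1 status of their cells. Each line gives bases 250 to 1 before the start, with the homeodomain words TAATTA and TAATTG (both strands; CAATTA is TAATTG read on the other strand) in capitals.
Olfr868, chr9:20098376-20098625, + strand: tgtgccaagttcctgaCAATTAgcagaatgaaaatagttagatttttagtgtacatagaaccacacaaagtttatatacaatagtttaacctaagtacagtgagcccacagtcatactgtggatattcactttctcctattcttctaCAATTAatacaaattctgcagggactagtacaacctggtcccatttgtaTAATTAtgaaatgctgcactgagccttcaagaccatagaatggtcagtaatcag
Olfr976, chr9:39961045-39961294, - strand: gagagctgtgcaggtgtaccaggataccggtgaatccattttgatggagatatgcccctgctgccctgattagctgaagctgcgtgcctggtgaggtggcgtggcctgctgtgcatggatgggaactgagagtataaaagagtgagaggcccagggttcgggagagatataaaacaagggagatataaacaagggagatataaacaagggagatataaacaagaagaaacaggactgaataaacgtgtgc
Olfr912, chr9:38579994-38580243, + strand: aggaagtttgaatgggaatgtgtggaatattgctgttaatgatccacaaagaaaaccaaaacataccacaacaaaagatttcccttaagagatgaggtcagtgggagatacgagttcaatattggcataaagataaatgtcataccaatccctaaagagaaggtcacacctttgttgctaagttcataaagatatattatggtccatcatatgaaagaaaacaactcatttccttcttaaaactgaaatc
Olfr983, chr9:40093559-40093808, - strand: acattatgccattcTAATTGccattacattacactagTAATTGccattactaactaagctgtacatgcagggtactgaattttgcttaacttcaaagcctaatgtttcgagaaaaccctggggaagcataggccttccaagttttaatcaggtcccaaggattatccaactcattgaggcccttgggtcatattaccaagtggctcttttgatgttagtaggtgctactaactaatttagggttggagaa
Olfr868 and Olfr983, with no Nqo1-positive user (0 of 6 and 0 of 3 Omp-gate users with 3 or more Nqo1 UMIs), carried these words, at 234, 103 and 54 bases before the start in Olfr868 and at 236 and 213 in Olfr983. Olfr976 (5 of 6 users Nqo1-positive) and Olfr912 (0 of 3) carried none. TAATTA stood in 4 of the 13 windows (30.8%) and TAATTG in 6 (46.2%), against 23.3% and 38.3% of 60 such windows of other class II receptors and 4.84% and 7.17% of 32851 RefSeq windows of all genes. A match is a description of the letters, and its part in receptor choice was not tested.

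The first question was how often neurons used a member and whether that changed with age. In the Omp gate as a whole, members were used at nearly the same rate at each age. At P0 it was 45 of 615 cells (7.32%, exact 95% binomial interval 5.39 to 9.67%). At the later ages it was 45 of 620 at P3 (7.26%), 35 of 476 at P7 (7.35%) and 73 of 958 at P21 (7.62%). The P21 share lay 0.303 percentage points above the P0 share, with a Newcombe interval of -2.48 to 2.89 points. In the Gap43 gate the shares were 69 of 946 (7.29%), 50 of 851 (5.88%), 42 of 540 (7.78%) and 20 of 256 (7.81%), and P21 lay 0.519 points above P0 (-2.74 to 4.74). Since each age is a lone library, ages could not be tested against each other. Age and library cannot be told apart, and all intervals cover counting error only.

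Among Omp-gate cells that used any receptor, members were used by 8.86%, 8.86%, 9.16% and 8.97%, close to their 9.60% share of the Olfr genes. In the Gap43 gate this share was 11.5%, 9.21%, 12.5% and 10.2%. Class I receptors, 11.5% of the genes, were used by 12.6%, 15.7%, 14.9% and 7.49% of such Omp-gate cells. In cells of the Omp gate alone, without those that also passed the Gap43 gate, member use was 4.32%, 7.59%, 8.71% and 7.10%, so that the P0 value was the lowest of the 4 and P21 lay 2.78 points above it (-0.431 to 5.40). In cells of the Gap43 gate alone it was 5.80%, 5.18%, 9.07% and 4.35%, with P21 on the other side of P0 than in the whole gate, by -1.45 points (-4.68 to 4.19). In cells thinned to 1500 UMIs the Omp-gate shares were 6.58%, 7.37%, 7.09% and 7.05%, with gates set after thinning and 291, 30, 142 and 97 shallower cells of all kinds left out.

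Background from free RNA was measured in other cell types. Cells outside both gates with 5 or more UMIs of stromal or leukocyte markers, which should hold no odorant receptor, gave 0 member users among 275, 670, 215 and 42 cells, which allows shares of up to 1.09%, 0.448%, 1.40% and 7.14%. Their median depths were 2250.0, 3916, 4038 and 2602 UMIs, against 4543, 6573, 5018 and 4433 in the Omp gate. At least 1 member UMI was found in 3.64%, 3.13%, 2.33% and 2.38% of these cells, and in 12.5%, 9.68%, 9.45% and 11.1% of Omp-gate cells. Between these 2 kinds of signal, few gated cells held exactly 2 member UMIs (4, 14, 3 and 2 cells), while 83, 72, 71 and 78 held 3 or more.

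**Figure D1:**
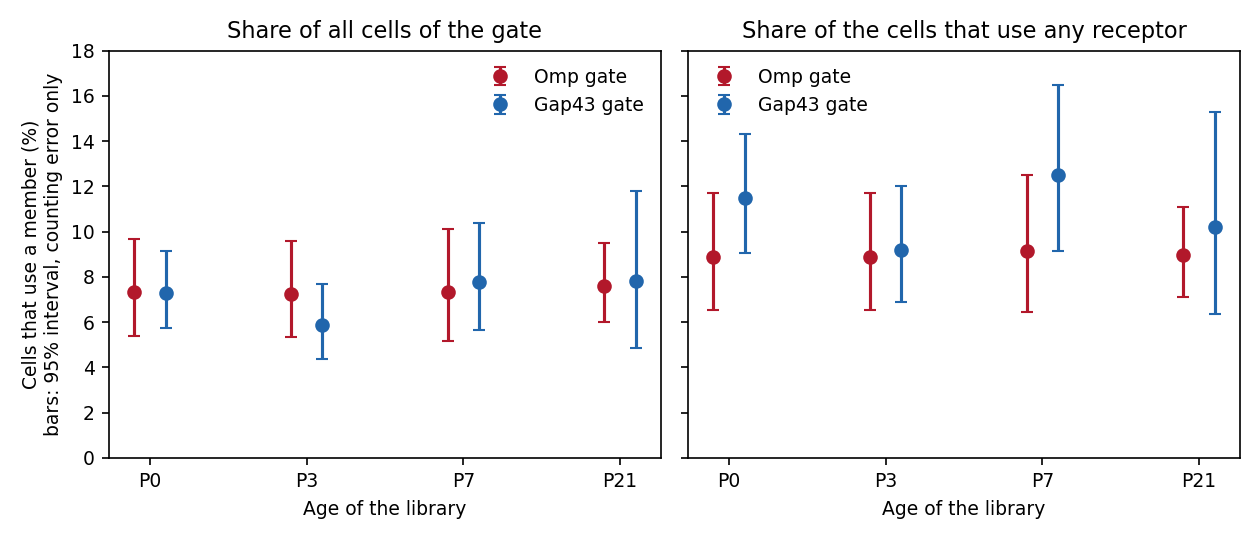
Share of cells that used a chromosome 9 member at each age (points) with exact 95% intervals (bars), for the Omp gate and the Gap43 gate, as a percentage of all cells of the gate (left) and of the cells that used any receptor (right). The Omp-gate shares stay between 7.26% and 7.62% on the left and between 8.86% and 9.16% on the right.

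Use was spread unevenly over the members. In all, 304 cells of either gate used a member, in 307 pairs of cell and member, and 80 members (75.5%) were used at least once, against 78.0% of class I and 80.5% of other class II receptors. The 10 most used members took 99 pairs (32.2%) and the 20 most used 162 (52.8%), while 19 members had 1 user and 18 had 2. At all 4 ages 12 members were used, at 3 ages 17, at 2 ages 27 and at 1 age 24. Users per member averaged 2.46 in the first block and 3.05 in the second.

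Olfr959 led with 17 users, 6, 0, 8 and 3 in order of age. Its UMIs per user were 6, 13, 27, 40, 75 and 129 at P0, 12, 17, 51, 71, 93, 100, 121 and 151 at P7, and 42, 116 and 142 at P21. The cells thus ranged from near the threshold to some of the highest counts of any member, and no P3 cell reached 3 UMIs. Olfr969 followed with 13 users, 4, 2, 4 and 3 at the 4 ages. They held 7, 12, 23 and 46 UMIs at P0, 9 and 42 at P3, 23, 25, 34 and 57 at P7, and 82, 87 and 96 at P21. In UMIs the 3 P21 cells lay above all 10 others, but they were deep (6223, 7334 and 9995 UMIs in all). Per 10000 UMIs they stood at 82.0, 119 and 154 and overlapped the others, which reached 108 at P0 and 137 at P7. All 3 were in the Omp gate, which held only 1 of the cells at each other age.

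Olfr857 and Olfr924 had 10 users each. Those of Olfr857 were found at P0 (2), P3 (6) and P7 (2), all in the Gap43 gate, and at P21 none was found. Olfr924 was used by 1, 4, 1 and 4 cells, with 3 to 48 UMIs each. Olfr878 and Olfr916 had 9 users, Olfr868, Olfr884 and Olfr974 had 8, Olfr867, Olfr923, Olfr976 and Olfr984 had 7, and Olfr847, Olfr873, Olfr874, Olfr875, Olfr933, Olfr938 and Olfr972 had 6. Some were found mostly at 1 age: 5 of the 6 Olfr874 users came from P3, and 4 of the 6 Olfr847 users and 5 of the 7 Olfr984 users from P21. Olfr974 was used by 5 cells at P0 and 3 at P21 and by 0 between. With so few cells per member these patterns are counts, not estimates of a change.

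**Figure D2:**
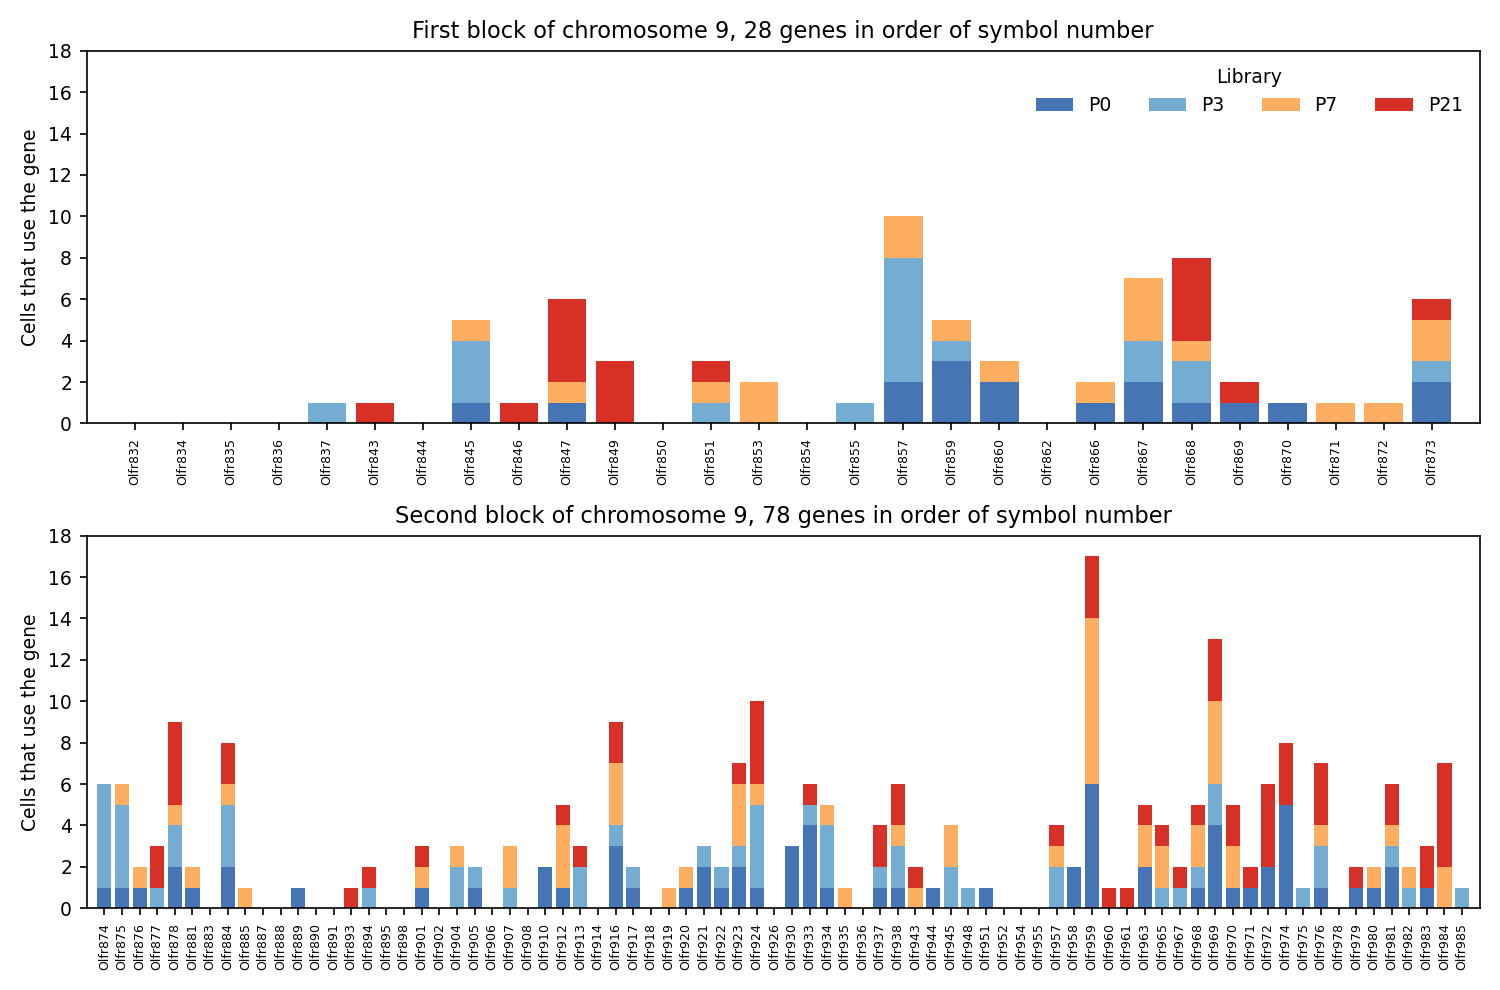
Number of cells that used each member (3 or more UMIs, either gate), stacked by library, in order of symbol number for the first block (top) and the second block (bottom). Olfr959 has 17 users and Olfr969 has 13, and 26 members have none.

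Of the 26 members without a user, 10 had no UMI in any cell and the rest at most 17 UMIs over all cells (Olfr906). Only 2 of the 9 members without an annotated 3′ untranslated region were used (22.2%), against 78 of the 97 with one (80.4%), and the same held for other class II receptors (31.6% against 84.1%) and class I (15.4% against 85.8%). The libraries read the 3′ end of transcripts, so a gene model without this region can miss reads. Its part in these counts was not tested. Relatives at 95% identity or more were found for 6 of the 26 and for 11 of the 80.

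By UMIs summed over all Omp-gate cells, members stood at 528, 433, 665 and 567 CPM in order of age, which was 9.47%, 7.14%, 9.23% and 7.45% of all receptor UMIs. For single members the P21 and P0 sums could be compared for 37 with 20 or more UMIs in either library: 18 were at least 2-fold higher at P21 and 15 at least 2-fold lower, with exact intervals of the ratio that excluded 1. Over all 10659 genes compared by this rule, 7.88% were higher and 4.69% lower, and over 438 other receptors 53.4% and 26.0%. A receptor's UMIs come from very few cells here: no called member had more than 4 users in either library, and 5 of the 18 and 10 of the 15 had at most 1 in each. Olfr972 went from 13 UMIs in Omp-gate cells at P0 (4.85 CPM, 1 user) to 223 at P21 (48.8 CPM, 4 users), a ratio of 10.1 (5.77 to 19.2), and Olfr921 from 114 UMIs (2 users) to 1 (0 users). In the Omp gate alone, 18 were higher and 5 lower among 24, against 8.34% and 3.74% of all 9767 genes compared there. No member had 5 Omp-gate users at P0 or P21, so shares of cells could not be compared member by member.

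The level of the receptor in a cell was taken as its UMIs per 10000 UMIs of that cell. It was lower in immature than in mature member users in each library. In cells of the Gap43 gate alone the median was 25 for the 38 users at P0, 19.3 (27 users), 26.7 (36) and 26.9 (5) at the later ages, and in cells of the Omp gate alone 56.7 (14), 64.0 (22), 88.8 (29) and 66.6 (58). The mean log2 ratio was -1.49 ± 0.28 (SD, n = 4 libraries), a 2.80-fold difference, lower in 4 of 4 libraries, with an exact two-sided sign-flip permutation p of 0.13, the smallest that 4 libraries allow (0.156 after Benjamini-Hochberg adjustment over the 5 paired comparisons made). Single cells of the 2 kinds overlapped at every age, and the Gap43-gate values at P21 rest on 5 cells. Median depth was 3518, 5780, 6324 and 7123 UMIs in users of the Gap43 gate alone, against 4534, 3977, 3603 and 4073. Unscaled, their median member UMIs were 7.5, 9, 19 and 14 against 18.5, 17, 29 and 21. The part of depth in this difference was not tested.

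**Figure D3:**
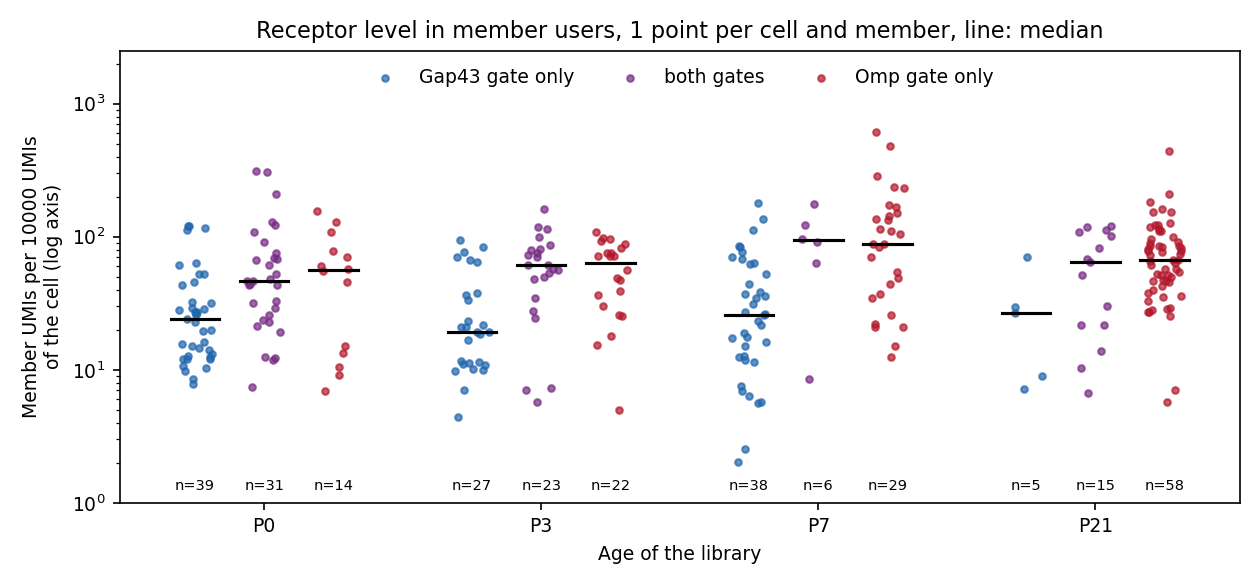
Member UMIs per 10000 UMIs of the cell on a log axis, 1 point for each cell and member it used, by library and gate, with black lines at the medians. Points of the Gap43 gate alone sit lower than those of the Omp gate alone in each library, and the clouds overlap.

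Compared with users of other class II receptors, member users in the Omp gate had median levels of 46.8, 60.8, 92.0 and 66.4 against 39.0, 48.4, 63.9 and 68.0 in order of age. The mean log2 ratio was 0.27 ± 0.23 (SD, n = 4 libraries), positive in 3 of 4, with an exact sign-flip p of 0.250 (adjusted 0.250). The direction was not the same in every library.

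Among the 28 members with 5 or more users, median levels ran from 7.09 to 144 per 10000, a 20.3-fold range. Olfr923 stood highest at 144, with medians of 138, 78.9, 152 and 85.3 by age over 2, 1, 3 and 1 cells. Olfr959 followed at 129.8, with a lowest cell of 19.4 and a highest of 609. Olfr878 was the steadiest of the high members, with medians of 118, 73.3, 104 and 115 over 2, 2, 1 and 4 cells and single cells between 71.0 and 122. Olfr874 (93.7) and Olfr868 (87.9) completed the 5 highest.

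At the low end stood Olfr845 at 7.09, Olfr981 at 7.24, Olfr859 at 15.2, Olfr884 at 15.6 and Olfr963 at 20.8. These medians pool the gates, and the cells of the Gap43 gate alone, which had lower levels, numbered 1 of 5 users of Olfr845, 1 of 6 of Olfr981, 3 of 5 of Olfr859, 4 of 8 of Olfr884 and 1 of 5 of Olfr963. The 6 users of Olfr981 held only 4 to 12 UMIs each, at every age (medians of 10.2, 7.30, 15.0 and 6.45), and 5 of them were in the Omp gate. The 3 P0 users of Olfr859, all outside the Omp gate, had levels of 12.1, 12.8 and 15.2. Its Omp-gate users at P3 and P7 had 87.8 and 96.6, and the P7 cell passed both gates. Gate and library cannot be told apart in these cells. The 2 Omp-gate users of Olfr884 at P21 had 57.1 and 78.8, against 11.5 to 23.4 in its 6 other users, 2 of which were in both gates. Olfr984, at 21.6, was used by 2 cells at P7 and 5 at P21, with 7 to 21 UMIs.

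Most member users held almost no other receptor. The member with most UMIs in the cell took a median of 99.2%, 100%, 100% and 100% of all receptor UMIs in the Omp-gate users. Another receptor at 3 or more UMIs was found in 6.67%, 11.1%, 2.86% and 2.74% of them, from 3, 5, 1 and 2 cells. In cells of the Gap43 gate alone this share was 18.4%, 14.8%, 19.4% and 20% (7, 4, 7 and 1 cells), against 14.3%, 13.6%, 3.45% and 0% in cells of the Omp gate alone (2, 3, 1 and 0 cells). These 2 groups differed in depth as given above. The mean difference was 10.3 ± 9.09 percentage points (SD, n = 4 libraries), positive in 4 of 4, with an exact sign-flip p of 0.13 (adjusted 0.156). With 5 UMIs as the threshold it fell to 0.980 points with an exact p of 1.0, so the difference rests on receptors of 3 or 4 UMIs.

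Of 30 member users with another receptor, 27 paired the member with a receptor outside the set. All such pairs were seen in 1 cell each except Olfr873 with Olfr18, seen in 5. Olfr18 is a class II receptor just outside the number rule. It is the next receptor along chromosome 9 (20312152 to 20336094, minus strand) after Olfr873 (20298532 to 20303599, plus strand), so that the 3′ ends of the 2 genes face each other. Olfr873 had 6 users and Olfr18 had 5, and all 5 Olfr18 users were among the 6. The UMIs of Olfr873 and Olfr18 in these cells were 11 and 9 at P0, 23 and 8 at P3, 15 and 10 and then 32 and 3 at P7, and 10 and 53 at P21. The sixth cell, at P0, had 172 UMIs of Olfr873 and 0 of Olfr18. Whether both genes are transcribed in these cells or reads of 1 transcript were assigned to both was not tested.

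The next question was the Nqo1 status of the cells, read as positive at 3 or more UMIs of Nqo1 and zero at none. Most Omp-gate member users were Nqo1-positive at P0, P3 and P7: 33 of 45 at P0 (73.3%, 58.1 to 85.4%), 26 of 45 at P3 (57.8%, 42.2 to 72.3%) and 22 of 35 at P7 (62.9%, 44.9 to 78.5%). At P21 it was 34 of 73 (46.6%, 34.8 to 58.6%). Cells with no Nqo1 UMI numbered 7, 14, 11 and 25, and 5, 5, 2 and 14 cells lay between. In stromal and leukocyte cells Nqo1 reached 3 UMIs in 1 of 275 cells at P0 (0.364%) and in 0 of 670, 215 and 42 at the other ages, and gave at least 1 UMI in 23, 69, 15 and 4.

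The P21 share lay 26.8 points under the P0 share (interval of the difference -42.1 to -8.46). Against P3 it differed by -11.2 points (-28.4 to 7.18), and in cells thinned to 1500 UMIs, where the shares were 56.0%, 40.0%, 55.6% and 42.4%, by -13.6 points (-34.6 to 9.17). In member users of the Omp gate alone the shares were 64.3% (9 of 14 cells), 63.6% (14 of 22), 62.1% (18 of 29) and 48.3% (28 of 58). In those of both gates they were 77.4% (24 of 31), 52.2% (12 of 23), 66.7% (4 of 6) and 40.0% (6 of 15). Users of the other receptors in the whole Omp gate moved the same way as members. Other class II users were Nqo1-positive in 47.6%, 41.3%, 35.5% and 25.1% at the 4 ages, and class I users in 89.1%, 75%, 66.7% and 68.9%.

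Member users were Nqo1-positive more often than other class II users in each library. The difference was 25.7, 16.5, 27.4 and 21.5 points in order of age, with a mean of 22.8 ± 4.86 (SD, n = 4 libraries) and an exact sign-flip p of 0.13, the smallest possible (adjusted 0.156). Leaving out any 1 library gave means of 21.2 to 24.8. Class I users had the higher share in each library, by a margin that was small at P7 (66.7% against 62.9%) and not tested.

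**Figure D4:**
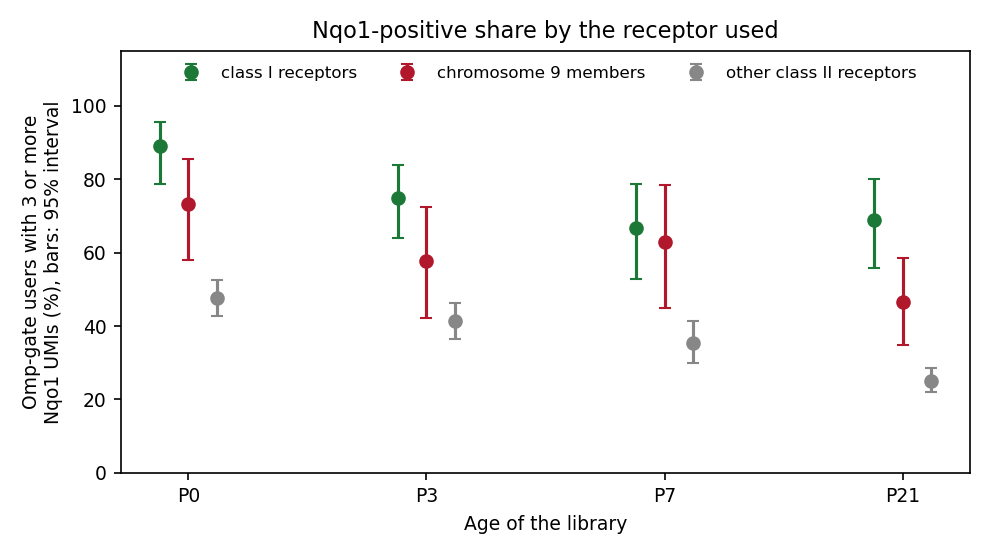
Share of Omp-gate users with 3 or more Nqo1 UMIs at each age, for users of class I receptors, chromosome 9 members and other class II receptors, with exact 95% intervals. Members lie between the other 2 kinds at each age, at 73.3%, 57.8%, 62.9% and 46.6%.

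Pooled over the 4 libraries, most users of the second block were Nqo1-positive and most of the first were not, though the latter did not hold in every library. Of the 41 pairs of Omp-gate cell and first-block member, 13 were Nqo1-positive (31.7%, 18.1 to 48.1%), against 65.0% of 157 pairs for the second block (57.0 to 72.4%). These intervals treat pairs as independent, though many share a member or a library. Single first-block members differed: Olfr868 gave 0 of 6 and Olfr857 1 of 5, and Olfr867 gave 5 of 5. By library the shares were 50% and 76.9% at P0, 31.2% and 72.4% at P3, 60.0% and 63.3% at P7, and 14.3% and 54.2% at P21, with 6, 16, 5 and 14 first-block pairs. The mean difference was 27.8 ± 17.6 points (SD, n = 4 libraries), positive in 4 of 4, with an exact sign-flip p of 0.13 (adjusted 0.156). With 1 Nqo1 UMI as the threshold it was 16.6 points with an exact sign-flip p of 0.375. The comparison of the blocks was not among the paired comparisons planned beforehand.

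Members differed among themselves within both blocks. Of 30 members with 3 or more Omp-gate users, 10 had Nqo1-positive users only and 5 had none, and of the 15 others 8 had both a positive and a zero user. Of 29 neighbouring pairs of these members, 13 fell on the same side of 50% Nqo1-positive. All 7 Omp-gate users of Olfr878 were positive, with 9 and 41 Nqo1 UMIs at P3, 7 at P7 and 18, 36, 47 and 55 at P21. All 7 of Olfr923 were positive too, with 8 and 17 UMIs at P0, 24 at P3, 17, 20 and 66 at P7 and 10 at P21. Olfr969 (6 of 6), Olfr867, Olfr938 and Olfr981 (5 of 5 each) Olfr875, Olfr884 and Olfr963 (4 of 4 each) and Olfr933 (3 of 3) belonged to the same kind. Olfr867 is in the first block, where most users pooled over the libraries were not positive.

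At the other end, the 6 Omp-gate users of Olfr868 held 0 Nqo1 UMIs at P0, 0 at P3 and 0, 0, 0 and 1 at P21. Those of Olfr984 held 0 in all 6 cells, 2 at P7 and 4 at P21. Olfr873 and Olfr983 had 3 zero users each, and the 3 of Olfr912 held 0, 0 and 1. By level, Olfr868 is among the 5 highest members and Olfr984 stands at 21.6 per 10000, while Olfr923 and Olfr981, both with positive users only, stand at 144 and 7.24.

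The other 15 were mixed. Olfr959 had 10 positive users of 12, with 12, 17 and 31 Nqo1 UMIs at P0, 0, 0, 3, 3, 12 and 17 at P7, and 11, 15 and 19 at P21. Olfr924 had 2 of 7, with 11 UMIs at P0, 0 and 4 at P3, and 0, 0, 0 and 2 at P21. Olfr847 had 2 of 4, both at P21, where its cells held 1, 1, 16 and 16 UMIs. Olfr974 had 2 of 5, and its P21 cells held 0, 0 and 14. Olfr857 had 1 of 5, with 0, 1, 1, 1 and 3 UMIs, all at P3.

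**Figure D5:**
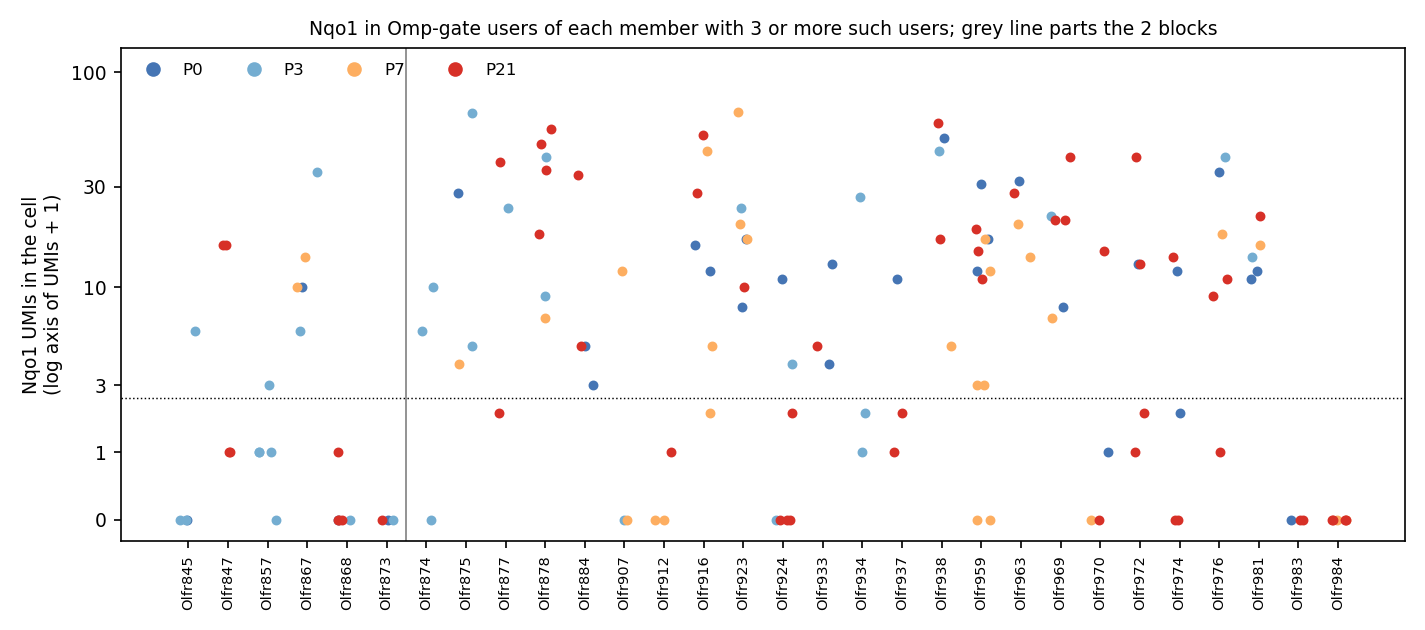
Nqo1 UMIs (log axis of UMIs + 1) in each Omp-gate user of the 30 members with 3 or more such users, coloured by library, in order of symbol number. Cells of 10 members lie all above the dotted line, drawn between 2 and 3 UMIs, and those of 5 members all below it, and the grey line parts the first from the second block.

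Status was then compared between libraries. By the majority of their Omp-gate users at P3 and P7, 21 members were positive and 13 negative. Of the Omp-gate users of the 21 positive members, 16 of 16 were Nqo1-positive at P0 (79.4 to 100%) and 22 of 26 at P21 (84.6%, 65.1 to 95.6%). For the 13 negative members it was 0 of 4 at P0 and 1 of 13 at P21 (7.69%, 0.195 to 36.0%). Another 6 members with as many positive as other users gave 2 of 2 at P0 and 0 of 4 at P21. Members with no Omp-gate user at P3 and P7 gave 15 positive of 23 users at P0 and 11 of 30 at P21.

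Among member users that were not yet in the Omp gate the marker was less frequent. Of member users in the Gap43 gate alone, 13.2%, 25.9%, 8.33% and 0% were Nqo1-positive (5, 7, 3 and 0 cells), and Nqo1 stood at 324, 321, 127 and 0 CPM in them, against 1769.6, 1960.0, 2212 and 2456 CPM in member users of the Omp gate alone. In the Gap43 gate as a whole, which includes cells of both gates, the share was 42.0%, 38.0%, 16.7% and 30%.

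Genes that went with the zone were then compared within members. UMIs were summed per library over Omp-gate member users with 3 or more Nqo1 UMIs (33, 26, 22 and 34 cells) and with 0 (7, 14, 11 and 25 cells). In edgeR's quasi-likelihood test with Benjamini-Hochberg adjustment over 2527 genes, library as block, 6 genes were higher (0.237%) and 5 lower (0.198%) in the Nqo1-positive cells. Nqo1 itself defines the groups and is among the 6 higher, a place fixed by the grouping. Acsm4, an acyl-CoA synthetase gene of the dorsal zone, stood at 761, 819.9, 899.5 and 886 CPM in the positive cells against 0, 29.7, 127 and 134 in the zero cells at P0, P3, P7 and P21, without overlap (log2 fold change 3.35, SE 0.31, edgeR adjusted p 2.81e-10).

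Nfix, of the ventral zone, went the other way, at 76.1, 55.1, 88.0 and 48.6 CPM against 303, 223, 297 and 277 (log2 fold change -2.07, SE 0.30, edgeR adjusted p 1.95e-05). Ncam2 was lower in the positive cells too (-3.09, edgeR adjusted p 0.0259), from 36 UMIs in all, and was past the threshold in 2 of 3 fits that left out a library. Nrp2, an axon guidance receptor of ventral neurons, pointed the same way without passing (-2.15, SE 0.60, edgeR adjusted p 0.164). Robo2, the Slit receptor of dorsal axons, showed a log2 fold change of 0.02 (SE 0.38).

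Cartpt, a neuropeptide precursor, stood at 5251, 4839.8, 4566 and 3947 CPM in the positive and 2454, 2436, 2459 and 1270.1 in the zero cells (1.17, SE 0.19, edgeR adjusted p 0.000152). Dusp26 (a phosphatase), Sult1d1 (a sulfotransferase) and Bglap3 were the others higher. Bglap3 rested on P3 (2141 against 44.6 CPM) and at P21 was lower in the positive cells. The metallothionein Mt2, at 159, 288, 156 and 259 against 454, 549.6, 551 and 679.8 CPM, was lower (-1.34, SE 0.22, edgeR adjusted p 0.000202), as were Gldc, an enzyme of glycine breakdown, and Pcolce2. With a library left out Acsm4, Nfix and Mt2 passed in 4 of 4 fits, Cartpt in 3, Bglap3 and Gldc in 2 and Sult1d1 and Pcolce2 in 1, and Dusp26 in all 3 where it was tested. None of 11 tested transduction genes, 11 genes of receptor choice and trafficking or 8 axon sorting genes passed. Without the library block 2 genes were higher and 2 lower, and DESeq2 gave 3 and 2.

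The same test compared Omp-gate cells whose highest receptor was a member (44, 42, 34 and 72 cells) with those whose highest receptor was another class II gene (399, 390, 290 and 681). Of 8974 genes 21 were higher (0.234%) and 22 lower (0.245%) in member users. At an unadjusted p under 0.05 it was 260 and 319. Zone genes were among those past the threshold: Nqo1 was at 2698, 1857, 2164 and 2389 CPM in member users against 1967, 1633, 1262 and 915 (log2 fold change 0.71, SE 0.09, edgeR adjusted p 6.37e-07), and Acsm4 was higher too (0.67, SE 0.10, edgeR adjusted p 7.37e-06; without P21 0.46, 0.0769). Nfix was at 107, 92.1, 163 and 144 against 188, 189.7, 324 and 365 CPM (-1.10, SE 0.13, edgeR adjusted p 7.09e-08). Ncam2 (-0.53), Nfia (-2.47), Nfib (-0.55), Nrp2 (0.19) and Robo2 (0.41) did not pass.

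Rprm, a cell cycle arrest gene, was lowest in member users relative to its error, at 19.5, 28.0, 19.6 and 48.1 CPM against 175, 255, 144 and 125 (-2.43, SE 0.22, edgeR adjusted p 3.74e-12). Tshz1, a zinc finger transcription factor gene, was at 14.6, 32.0, 13.0 and 27.1 against 78.9, 84.0, 99.6 and 75.9 CPM (-1.81, SE 0.26). Cd36, a fatty acid scavenger receptor found in a subset of OSNs, gave 1 UMI in all member users and 291 UMIs in the others. Etv4, an ETS transcription factor gene, gave 0 and 110 UMIs, the latter from many more cells. That was 0 CPM in each library against 14.8, 14.7, 12.2 and 8.84 (edgeR adjusted p 0.0223). Etv4 passed in 1 of the 4 fits that left out a library. Cidea, a lipid droplet gene, was lower as well (-1.26, SE 0.18, edgeR adjusted p 2.38e-06).

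These differences were next taken within cells of 1 Nqo1 status, an alternative chosen after seeing the data. Among Nqo1-positive cells alone 0 genes were higher and 6 lower, with Rprm (-2.22), Tshz1 (-1.65) and Cd36 among them, while Nfix (-0.12), Cidea (0.03) and Acsm4 (-0.000620) did not pass (edgeR adjusted p from 0.996 to 1.0). Nqo1 itself chose these cells, so its own difference there is no result. Among cells with no Nqo1 UMI 4 were higher and 3 lower, and Rprm (-2.00, edgeR adjusted p 4.05e-05) was again lower. Cd36 and Tshz1 did not pass there (both edgeR adjusted p 0.108).

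Higher in member users were also Socs2, a suppressor of cytokine signalling, at 604, 789, 456 and 313 against 392, 446, 317 and 170.2 CPM (0.74, SE 0.09, edgeR adjusted p 1.99e-07), the stress response gene Trib3 (1.26, SE 0.19), the POU factor gene Pou2f1 (1.63, SE 0.27), Klf6, Plek, Prph and 2810001G20Rik. The P3 library carries several of these calls. Pou2f1 stood there at 148 against 26.4 CPM and Trib3 at 260.2 against 63.8, and without P3 their log2 fold changes were 0.87 and 0.69 (edgeR adjusted p 0.752 and 0.475). Klf6 (0.75), Plek (1.57), Prph (0.52) and 2810001G20Rik (0.59) did not pass without P3 either, nor without P21. Of the genes named in this paragraph as higher only Socs2 passed with each library left out and with DESeq2. Socs2 did not pass among Nqo1-positive cells alone or without the library block, where 0 genes were higher. Klkb1 (-2.90), Zfp407 (-1.74), Apoe (-1.91) and Acta2 (-1.76) were lower, past the threshold in 2, 1, 3 and 3 of the 4 fits that left out a library and in none with DESeq2. Apoe and the smooth muscle actin gene Acta2 are known from glia, immune and mural cells, and Acta2 had a log2 fold change of 0.48 without the 5% of cells with most UMIs. Its log2 fold change without P3 was -0.58 (edgeR adjusted p 0.995), and its P3 values were 28.0 and 131 CPM, in the library where the stromal markers reached 370.5 CPM. The part of such cells in these differences was not tested.

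Of the gene lists, 0 of 13 transduction genes passed (median log2 fold change 0.14, against -0.01 over all 8974 genes), among them Gnal (0.21), Adcy3 (0.21) and Cnga2 (0.14), and 2 of them, Gnal and Rgs7 (-0.68), had an unadjusted p under 0.05. Of 14 genes of receptor choice and trafficking 1 was higher, Ddit3 (0.60, SE 0.15, edgeR adjusted p 0.0434), which was higher in 2 of 4 libraries only. Lhx2 (-0.05), Ebf1 (0.12), Atf5 (0.07) and Rtp1 (0.02) did not pass. Of 14 axon sorting genes Tenm4 (0.84) and Tenm2 (0.61), teneurin adhesion proteins, were higher and Kirrel2 (-0.58), a homophilic adhesion gene, was lower, at 97.4, 80.1, 130.3 and 415 against 171, 141, 196 and 578 CPM. With a library left out Tenm4 passed in 2 of 4 fits and Tenm2 and Kirrel2 in 1 of 4 each. Without P3 Tenm4 had a log2 fold change of 0.48 (edgeR adjusted p 0.783), and at P7 Tenm2 was at 149.9 CPM in member users against 232. The counts depend on the libraries: 5 higher and 9 lower without P21, 6 and 11 without P3, 16 and 14 without P0, and 33 and 29 without P7. Without the library block they were 0 and 2, and with DESeq2 6 and 5.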

How the data were processed

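The deposited tables hold counts of UMIs per gene and cell for 4 libraries, as integers and, per the values, with no scaling by the authors. Chromium 3′ libraries were made, per the labels' protocols, and Cell Ranger 2.1.1, Seurat and mm10 are named in the submitters' processing notes. Nothing in those sources tells how cells were selected upstream. Cells with at least 500 genes and at most 10% mitochondrial and 10% haemoglobin UMIs were kept, which removed 12, 0, 2 and 3 cells and left 9192869, 17770838, 8650272 and 6844712 UMIs. No doublet caller was run; an alternative left out the 5% of cells with most UMIs.

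Coordinates and classes came from GENCODE M21, and class I was taken as Olfr genes in the chromosome 7 cluster (127 genes). Identity was computed on coding sequences with edlib 1.3.9.post1, since protein sequences were not used here. Shares carry exact Clopper-Pearson intervals (SciPy 1.17.1) and differences Newcombe intervals. Paired values over the 4 libraries were tested by exact sign flips. UMI sums without Olfr genes were tested with edgeR 4.0.16 (R 4.3.3, TMM, filterByExpr, library as block, threshold 0.05 after adjustment). DESeq2 1.42.0 was an alternative. Only the edgeR test was also run on simulated data. The SE given with an edgeR log2 fold change is its absolute value divided by the square root of the quasi-likelihood F. Sums of the same library are paired by construction.

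Named members are the 20 most used and the 5 highest and 5 lowest by median level among those with 5 or more users. Named genes of the fits are the 10 with the largest and 10 with the smallest change past the threshold, plus zone genes and 3 lists. The members and lists were chosen with earlier results of these data known.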

Additional observations from a re-analysis of the deposited data

Results flagged for a closer look

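Olfr947-ps1, a pseudogene symbol inside the number range and so not a member, reached 3 or more UMIs in 5 cells, with 179 UMIs over 10 cells. It is given because the comparisons above leave pseudogene symbols out, and background cells used no member at all. All 39 pseudogene symbols of the range together gave 324 UMIs and 8 such cells over 4 symbols, among them Olfr856-ps1 with 127 UMIs and 1 cell. The separate entry Olfr912.1 gave 39 UMIs and 2 cells.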

How the results depend on the processing

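Each result was recomputed with use at 2 or 5 UMIs, without the filter on cells, without the 5% of cells with most UMIs, without barcodes found in more than 1 library (added after seeing the data) and, where it applied, in thinned cells, in cells of 1 gate only, with Nqo1-positive set at 1 UMI, with P3 as the early library and with each library left out. The 4 differences between P0 and P21 stayed inside their own intervals, though that of the Gap43 gate turned to -1.45 points in cells of 1 gate only, and the members' share of receptor users to -0.192 with use at 5 UMIs and -0.647 in thinned cells. The means of the 5 paired differences kept their sign in all of these, but not always their size. That of the second receptor share shrank strongly with use at 5 UMIs. That of the blocks shrank with Nqo1-positive set at 1 UMI. Both then had larger exact p values, as given above. The paired p cannot fall below 0.13, or 0.25 with a library left out. Genes higher and lower in member users numbered 21 and 22, but 6 and 5 with DESeq2, 0 and 6 in Nqo1-positive cells, 4 and 3 in cells with no Nqo1 UMI, 16 and 43 without the low-count filter, 0 and 2 without the library block that pairs the sums, and 5 to 33 higher and 9 to 29 lower with a library left out. Genes higher and lower in Nqo1-positive member users numbered 6 and 5, with Nqo1 itself, which defines the groups, among the 6. They numbered 3 and 2 with DESeq2, 12 and 4 without the low-count filter and 2 and 2 without the block. With a library left out they numbered 4 to 6 and 2 to 8. The cause of these shifts was not tested. In Nqo1-positive cells the log2 fold changes of Nqo1 (-0.05, whose difference the selection itself removes), Acsm4 (-0.000620), Cidea (0.03) and Klf6 (-0.04) changed sign, as did Acta2 (0.48) without the 5% of cells with most UMIs. Members lower at P21 numbered 5 of 24 in cells of the Omp gate alone rather than 15 of 37. Over all genes compared, 3.74% rather than 4.69% were lower. Changes in the share of cells per member could not be computed, since no member had 5 Omp-gate users at P0 or P21.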

Other observations

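All RefSeq windows of receptors, coding-exon windows included, were also searched for the homeodomain words. Of 8 members with a word and 3 or more Omp-gate users, 1 had at least 50% Nqo1-positive users (7 of 35 users, 20%), against 11 of 14 without a word (61 of 76 users, 80.3%). Among other class II receptors it was 40 receptors with a word (39.6%) and 56 of 155 without (36.1%), and among class I receptors 12 of 13 and 25 of 29. Median GC content of the windows was 34.3% with and 36.2% without a word among members. In windows at the outermost transcript start, 0 of 2 members with a word and 1 of 2 without had such users, against 6 of 15 and 0 of 8 other class II receptors. These counts were chosen after seeing the data and were not tested.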
